A study of Triticum aestivum with 24 samples.

Results

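The comparison of *Rht-D1b* with Cadenza in water asked which transcripts differ between seedlings with a GA-resistant and a normal RHT-D1 protein when no gibberellin (GA) was supplied. It rests on 8 RNA-seq libraries, 4 of *Rht-D1b* and 4 of Cadenza, from leaf sheaths harvested from 7-d-old wheat seedlings 8 h after a treatment with water. Cadenza is a hexaploid spring wheat and served as the wild type. *Rht-D1b* is a semidwarf near-isogenic line in the Cadenza background that carries the *Rht-D1b* allele of *RHT-D1*. The same experiment holds 4 libraries of each genotype treated with 100 µM GA3, and 8 libraries of *idd5*, a mutant of the *IDD5* homoeologues. A gene was a member of the comparison if it had at least 0.5 TPM in at least 4 of the 8 water libraries, which 58542 of the 107891 gene models did. TPM, the unit of the table, gives the abundance of each transcript relative to the total of its library.

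RHT1 is the wheat DELLA protein, a nuclear growth repressor encoded by *RHT-A1*, *RHT-B1* and *RHT-D1*. GA binds its receptor GID1, the complex binds the DELLA domain, and the DELLA protein is then degraded, which releases growth. The *Rht-D1b* allele has a premature stop codon in this domain, and translation restarts downstream to give a shortened protein that GA does not remove. DELLA proteins have no DNA-binding domain of their own and act on transcription through partners, among them the zinc-finger protein IDD5. Only 1 line carried the allele, so the allele and any other difference between the lines cannot be told apart. In bulk tissue, fewer cells of a type and less RNA per cell cannot be told apart either.

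Each of the 8 libraries had between 57539 and 58700 genes at 0.5 TPM or more, and their sequencing depth is unknown because TPM does not retain it. The correlation across genes, of log2(TPM + 0.5), ranged from 0.972 to 0.976 between Cadenza libraries, from 0.965 to 0.970 between *Rht-D1b* libraries and from 0.955 to 0.963 between the genotypes. The table pairs its identifiers with no gene names, and of all identifiers 6 could be named, from the mutation table of the study. No marker gene could therefore be looked up to check the labelled tissue, and genes are given below by identifier, in which the characters after TraesCS name the chromosome and the subgenome.

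*RHT-D1* (TraesCS4D02G040400, chromosome 4D) was higher in *Rht-D1b*. Its TPM values were 70.6, 61.5, 63.7 and 66.9 in the 4 Cadenza libraries and 106, 103, 106 and 103 in the 4 *Rht-D1b* libraries. The groups lay far apart, and the *Rht-D1b* libraries were close to each other. The log2 fold change was 0.67 (SE 0.07, adjusted p = 2.11e-06 from limma's test, exact two-sided permutation test p = 0.0286, the smallest that 4 libraries against 4 allow). All fold changes are *Rht-D1b* over Cadenza, taken on log2(TPM + 0.5), where the difference of genes with low TPM comes out too small.

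The other homoeologues of the DELLA gene had values that overlapped between the genotypes. *RHT-A1* (TraesCS4A02G271000) showed 84.1 ± 3.51 TPM (SD, n = 4) in Cadenza against 75.8 ± 6.30 TPM (SD, n = 4) in *Rht-D1b*, with a log2 fold change of -0.15 (limma's adjusted p = 0.227). *RHT-B1* (TraesCS4B02G043100) had 80.2 ± 2.87 TPM (SD, n = 4) and 76.3 ± 4.41 TPM (SD, n = 4), a log2 fold change of -0.07 (adjusted p = 0.631), which became 0.0003 with median-ratio scaling of the libraries. *RHT-D1* thus made up 28.6% ± 0.69 (SD, n = 4) of the summed TPM of the 3 homoeologues in Cadenza and 40.8% ± 1.37 (SD, n = 4) in *Rht-D1b*. The sum itself was 230 ± 9.95 TPM (SD, n = 4) in Cadenza against 257 ± 12.2 TPM (SD, n = 4) in *Rht-D1b*, and the lowest *Rht-D1b* library, with 243.9 TPM, was just below the highest Cadenza library, with 243.99 TPM. In the libraries treated with GA3 the share was 30.1% ± 0.34 (SD, n = 4) in Cadenza against 40.0% ± 0.34 (SD, n = 4) in *Rht-D1b*. There the sum was 291 ± 16.3 TPM (SD, n = 4) in Cadenza against 273 ± 27.8 TPM (SD, n = 4) in *Rht-D1b*, the other order than in water, with overlapping libraries. *RHT-A1* was lower in *Rht-D1b* in these libraries, at 81.8 ± 7.20 TPM (SD, n = 4) against 105 ± 6.74 TPM (SD, n = 4) in Cadenza (log2 fold change -0.37, limma's adjusted p = 0.00138). TPM does not separate the alleles, and how reads common to the near-identical homoeologues were divided is not given in the sources used here.

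The *IDD5* homoeologues, which encode the DNA-binding partner, were near 10 TPM in both genotypes. *IDD5-A1* (TraesCS2A02G188400) had 9.06 ± 0.65 TPM (SD, n = 4) in Cadenza against 8.45 ± 0.74 TPM (SD, n = 4) in *Rht-D1b*. *IDD5-B1* (TraesCS2B02G218900) had 9.43 ± 0.93 TPM (SD, n = 4) and 8.44 ± 0.35 TPM (SD, n = 4). *IDD5-D1* (TraesCS2D02G199300) had 11.6 ± 0.66 TPM (SD, n = 4) and 10.95 ± 0.94 TPM (SD, n = 4). None of the 3 passed limma's test, with adjusted p = 0.53 for *IDD5-A1*, 0.217 for *IDD5-B1* and 0.608 for *IDD5-D1*. Of the 6 genes that could be named, 1 was thus called, upward, where 4.34% of all genes tested were called and 1.87% were called higher. Other genes of GA biosynthesis, GA perception and cell wall growth could not be paired with identifiers of the table and are not analysed here.

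**Figure D1:**
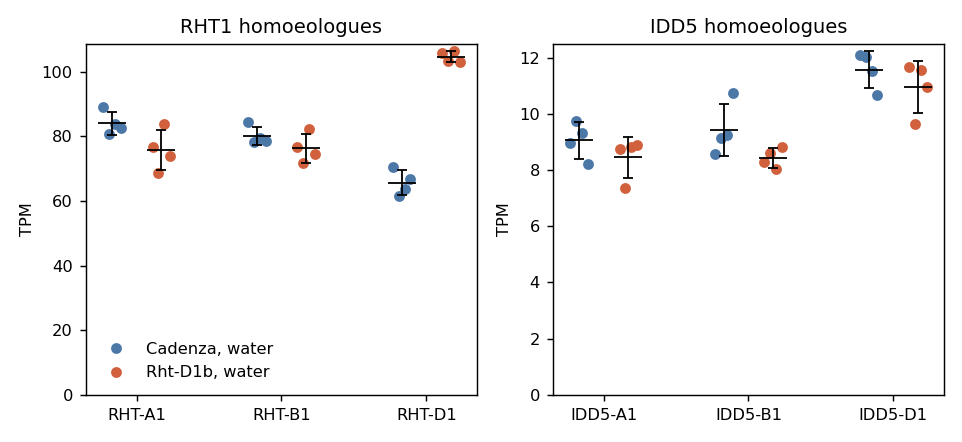
TPM of the RHT1 (left) and IDD5 (right) homoeologues in each of the 4 Cadenza and 4 *Rht-D1b* libraries in water; points are libraries, and the black marks are the mean and SD. Only for *RHT-D1* do the groups lie apart, at 61.5 to 70.6 TPM in Cadenza and 103 to 106 TPM in *Rht-D1b*.

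Across all tested genes, 2539 were differentially expressed (DEGs, limma's Benjamini-Hochberg adjusted p under 0.01), which is 4.34% of the genes tested. Of these, 1096 (1.87% of the genes tested) were higher and 1443 (2.46%) lower in *Rht-D1b*. The 8 libraries of the 2 genotypes did not overlap for 2511 DEGs (98.9%), whereas over all genes tested the groups did not overlap for 15%. The same libraries called the DEGs, so this separation follows largely from the calls and is a description. The DEGs include 65 genes that passed the filter only through Cadenza and 33 only through *Rht-D1b*, which could not overlap. The median log2 fold change was 0.62 among the higher DEGs, -0.47 among the lower DEGs and -0.07 over all genes tested. With median-ratio scaling of the libraries, which moved that last median to -0.0034, 1444 DEGs were higher and 821 lower, so the share of higher DEGs was 43.2% with TPM as deposited and 63.8% after scaling. The counts also depended on single libraries, since 1630 DEGs were called without Cadenza replicate 3, and the 1443 lower DEGs became 833 without Cadenza replicate 3, 901 without Cadenza replicate 4 and 934 without *Rht-D1b* replicate 1.

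Large differences were a minority, and their number was less sensitive to the scaling and to single libraries. At least 2-fold differences (an absolute log2 fold change of 1 or more) were seen for 443 DEGs (0.757% of the genes tested), of which 179 (0.306%) were higher and 264 (0.451%) lower. With median-ratio scaling there were again 443, and the share of higher genes among them was 48.3% in place of 40.4%. The number did depend on the pseudocount and the filter. It was 508 with a pseudocount of 0.1, 360 with a pseudocount of 1 and 343 with a filter at 2 TPM. The balance of the smaller differences depended on the scaling, with 917 higher and 1179 lower DEGs of less than 2-fold for TPM as deposited but 1230 higher and 592 lower after median-ratio scaling. For TPM as deposited, the DEGs with an absolute log2 fold change under 0.5 comprised 333 higher and 779 lower genes. Between 0.5 and 1 there were 584 higher and 400 lower genes. At the far end, between 3 and 5, 10 genes were higher and 21 lower, and at 5 and above 0 were higher and 7 lower.

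**Figure D2:**
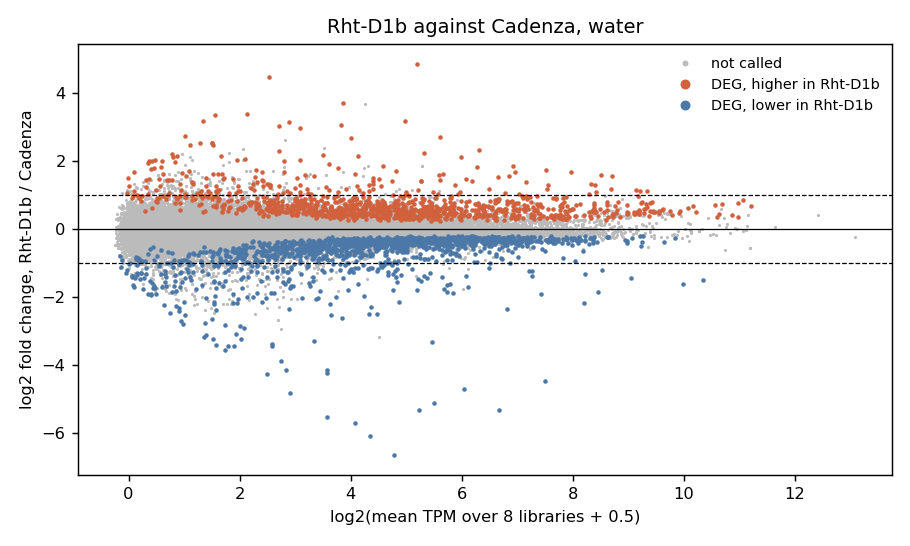
Log2 fold change between *Rht-D1b* and Cadenza in water (vertical axis) against the log2 of the mean TPM over the 8 libraries plus 0.5 (horizontal axis) for the 58542 genes tested; coloured points are the 1096 higher and 1443 lower DEGs, and dashed lines mark a 2-fold difference. The lowest points, at log2 fold changes of -5 and below, belong to 7 genes, and no DEG lies above 5.

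DEGs were more frequent among abundant transcripts. Below a mean of 2 TPM, 180 of 15099 genes were DEGs (1.19%), and from 2 to 10 TPM 555 of 26406 were (2.1%). From 10 to 50 TPM the share was 8.10% (1109 of 13693), and at 50 TPM and above it was 20.8% (695 of 3344). The sizes ran the other way, since 64.4% of the DEGs below 2 TPM but 8.06% of those at 50 TPM and above differed at least 2-fold. These shares describe what could be called and not how many genes differed.

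The DEGs carried a sizeable part of the measured transcripts. The higher DEGs together took up 8.0% ± 0.21 (SD, n = 4) of all TPM in Cadenza and 12.3% ± 0.72 (SD, n = 4) in *Rht-D1b*. The lower DEGs went from 8.10% ± 0.0093 (SD, n = 4) to 5.64% ± 0.063 (SD, n = 4). These libraries chose the genes, so the shares are a description. In the GA3 libraries, whose levels did not enter the contrast but whose spread entered the fit, the higher DEGs took up 8.09% ± 0.75 (SD, n = 4) in Cadenza against 12.7% ± 0.80 (SD, n = 4) in *Rht-D1b*, and the lower DEGs 8.28% ± 0.28 (SD, n = 4) and 5.62% ± 0.10 (SD, n = 4). In water-treated *idd5* the same genes took up 12.1% ± 0.71 (SD, n = 4) and 6.19% ± 0.22 (SD, n = 4) of all TPM. The Cadenza water libraries set beside *idd5* are those that chose the genes, so the *idd5* comparison does not have a separate control. The 20 genes with the largest gain in *Rht-D1b* accounted for 26.7% of the summed gain in mean TPM of the higher DEGs.

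The largest differences were taken among the DEGs with non-overlapping groups and a mean of at least 5 TPM in the higher genotype. The 6 largest decreases had means of 22.7 to 200 TPM in Cadenza and at most 5.23 TPM in any *Rht-D1b* library. Of these genes and the 6 largest increases, TraesCS4A02G333500, TraesCS4A02G333400, TraesCS5B02G009000, TraesCS5B02G010400, TraesCS5D02G111200 and TraesCS4D02G059800 had under 0.5 TPM in each library of the lower genotype and passed the filter only through the other, so they had to differ. TraesCS4A02G333500 had 48.1, 52.0, 55.0 and 59.7 TPM in Cadenza and 0.05, 0, 0 and 0.09 TPM in *Rht-D1b* (log2 fold change -6.66, SE 0.11, adjusted p = 2.49e-21 from limma's test). Its neighbour TraesCS4A02G333400 had 20.5, 23.6, 21.6 and 25.3 TPM in Cadenza and was listed at 0 in all 4 *Rht-D1b* libraries (adjusted p = 5.82e-21). Both were present in water-treated *idd5*, at 56.8 ± 1.80 TPM (SD, n = 4) for TraesCS4A02G333500 and 26.5 ± 3.27 TPM (SD, n = 4) for TraesCS4A02G333400. The *idd5* values are set beside those of *Rht-D1b* here and below as a description. Both genotypes have the same Cadenza libraries as control, and these libraries also chose the genes. A deviation of the Cadenza libraries would therefore move both comparisons in the same direction.

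A second set of large decreases came from chromosomes 5B and 2B. TraesCS5B02G009000 had 29.2, 43.3, 38.2 and 48.6 TPM in Cadenza and 0, 0, 0.08 and 0.28 TPM in *Rht-D1b* (log2 fold change -6.10, SE 0.35, adjusted p = 5.35e-11). TraesCS5B02G010400 had 34.9, 34.4, 30.7 and 30.5 TPM in Cadenza and 0.12, 0.23, 0.08 and 0.09 TPM in *Rht-D1b* (-5.72, SE 0.37, adjusted p = 4.69e-10 from limma's test). No *Rht-D1b* library reached 1 TPM for these 2 genes, and in water-treated *idd5* they had 2.08 ± 1.61 TPM (SD, n = 4) and 2.99 ± 2.05 TPM (SD, n = 4). TraesCS5B02G016100 had 63.8, 63.0, 80.35 and 82.2 TPM in Cadenza and 0.68, 1.83, 2.08 and 0.98 TPM in *Rht-D1b* (log2 fold change -5.33, SE 0.26). TraesCS2B02G100800 was the most abundant of the 6, with 212, 226, 182 and 178 TPM in Cadenza and 4.13, 4.18, 4.49 and 5.23 TPM in *Rht-D1b* (log2 fold change -5.32, SE 0.30). Both were also low in *idd5*, at 15 ± 4.72 TPM (SD, n = 4) for TraesCS5B02G016100 and 12.6 ± 6.25 TPM (SD, n = 4) for TraesCS2B02G100800.

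The 6 largest increases started from a mean of at most 5.87 TPM in Cadenza. TraesCS2A02G416300 had 1.23, 1.77, 2.26 and 1.75 TPM in Cadenza and 51.45, 104.6, 35.4 and 89.0 TPM in *Rht-D1b* (log2 fold change 4.86, SE 0.36, adjusted p = 5.45e-09 from limma's test). Its *Rht-D1b* libraries differed about 3-fold among themselves but each lay above every Cadenza library. TraesCS5D02G111200 was listed at 0 in all 4 Cadenza libraries and had 10.9, 10.3, 11.2 and 9.52 TPM in *Rht-D1b* (adjusted p = 5.31e-15). TraesCS5D02G119700 had 1.17, 1.79, 2.84 and 0.98 TPM in Cadenza and 30.5, 23.9, 27.2 and 24.6 TPM in *Rht-D1b* (log2 fold change 3.69, SE 0.21). These 2 genes of chromosome 5D stayed low in water-treated *idd5*, with 0.068 ± 0.051 TPM (SD, n = 4) for TraesCS5D02G111200 and 2.215 ± 0.86 TPM (SD, n = 4) for TraesCS5D02G119700, whereas TraesCS2A02G416300 had 13.4 ± 6.99 TPM (SD, n = 4) there.

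The remaining 3 of these increases were on chromosomes 4D, 2A and 5B. TraesCS4D02G059800 had 0.36, 0.06, 0.26 and 0.40 TPM in Cadenza and 6.90, 9.40, 6.93 and 6.87 TPM in *Rht-D1b* (log2 fold change 3.39, SE 0.21, adjusted p = 1.55e-10 from limma's test). TraesCS2A02G067100 had 5.01, 4.90, 4.86 and 8.69 TPM in Cadenza and 61.7, 48.6, 64.5 and 50.1 TPM in *Rht-D1b* (3.19, SE 0.31, adjusted p = 4.63e-07). TraesCS5B02G500600 had 1.27, 1.0, 0.70 and 1.05 TPM in Cadenza and 11.8, 11.04, 14.6 and 14.0 TPM in *Rht-D1b* (3.15, SE 0.19, adjusted p = 1.37e-10). In water-treated *idd5*, TraesCS2A02G067100 was as high as in *Rht-D1b*, at 64.1 ± 28.5 TPM (SD, n = 4), while TraesCS4D02G059800 had 0.18 ± 0.18 TPM (SD, n = 4) and TraesCS5B02G500600 had 6.93 ± 1.79 TPM (SD, n = 4).

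**Figure D3:**
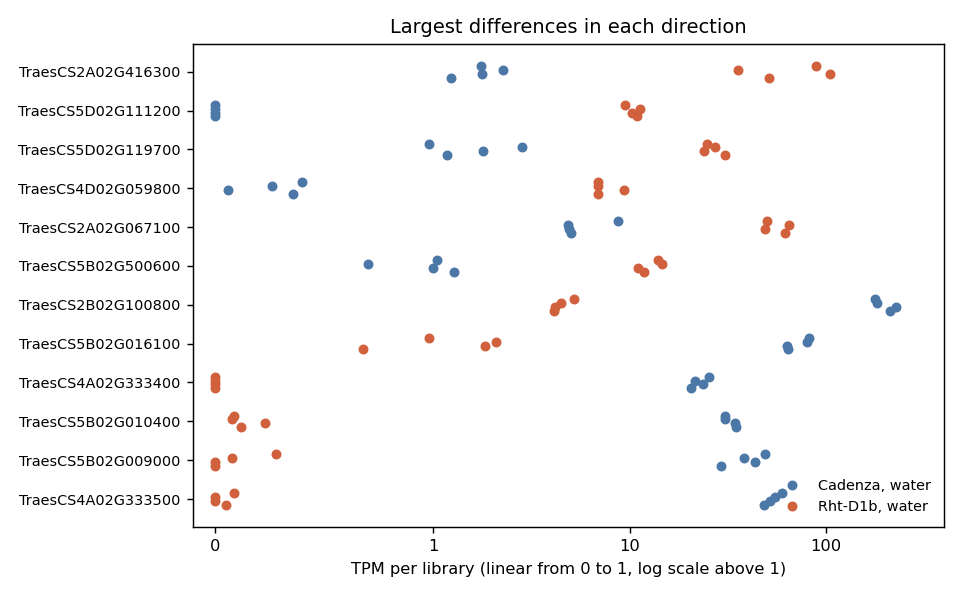
TPM in each water library (horizontal axis, linear from 0 to 1 and logarithmic above 1) of the 6 genes with the largest increase and the 6 with the largest decrease in *Rht-D1b*; points are libraries, 4 for each genotype. The 2 genotypes do not overlap for any of the 12 genes, which were chosen for this, and TraesCS2A02G416300 spreads from 35.4 to 104.6 TPM in *Rht-D1b*.

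The most abundant DEGs mostly moved by smaller factors. TraesCS5A02G165700 had 1510, 1543, 1417 and 1624 TPM in Cadenza and 2707, 2489, 3003 and 2850 TPM in *Rht-D1b* (log2 fold change 0.86, SE 0.10, adjusted p = 3.62e-06 from limma's test). TraesCS5D02G169900 had 1785, 1843, 1754 and 1920 TPM in Cadenza and 2902, 2710, 3079 and 2919 TPM in *Rht-D1b* (0.67, SE 0.08, adjusted p = 1.53e-05). Each of these transcripts alone took up over 0.1% of all TPM in every library. In water-treated *idd5* they had 2866 ± 313 TPM (SD, n = 4) for TraesCS5A02G165700 and 3052 ± 110 TPM (SD, n = 4) for TraesCS5D02G169900. The third, TraesCS7A02G178300, had 1784 ± 116 TPM (SD, n = 4) in Cadenza against 2248 ± 89.9 TPM (SD, n = 4) in *Rht-D1b* (0.34, adjusted p = 0.00307). It no longer passed the test without Cadenza replicate 1, 2 or 3 or without *Rht-D1b* replicate 1 or 3, with adjusted p from 0.0107 to 0.0136, nor without the filter (0.0304) or in the fit of the 8 water libraries (0.0258).

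Of the abundant transcripts that were lower, 2 fell to about a 3-fold lower level. TraesCS1D02G027300 had 2076, 2403, 1494 and 1759 TPM in Cadenza and 751, 628, 720 and 603 TPM in *Rht-D1b* (log2 fold change -1.50, SE 0.15, adjusted p = 6.24e-07 from limma's test). TraesCS2B02G600200 had 1600, 1521, 1506 and 1451 TPM in Cadenza and 527, 472, 535 and 445 TPM in *Rht-D1b* (-1.62, SE 0.10, adjusted p = 1.37e-10). In water-treated *idd5* these genes had 799 ± 131 TPM (SD, n = 4) for TraesCS1D02G027300 and 585 ± 102 TPM (SD, n = 4) for TraesCS2B02G600200. The third, TraesCS3D02G177100, had 1001 ± 30.1 TPM (SD, n = 4) in Cadenza against 834 ± 25.9 TPM (SD, n = 4) in *Rht-D1b* (-0.26, adjusted p = 0.00335), and it missed the threshold without Cadenza replicate 2 or *Rht-D1b* replicate 1 or 3, with adjusted p from 0.0108 to 0.0158, and with median-ratio scaling (0.0688), without the filter (0.0154), in the fit of the 8 water libraries (0.0277) and in that of the 16 libraries without *idd5* (0.0108).

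By the smallest adjusted p, genes that varied little between replicates came first. All but TraesCS5A02G406700 of the 6 named here had under 0.5 TPM in each library of the lower genotype, so they were tested only because of their level in the other genotype and had to differ. Among the higher genes these were TraesCS5D02G111200, TraesCS5A02G406700 and TraesCSU02G134900. TraesCS5A02G406700 had 35.4, 32.3, 32.9 and 33.0 TPM in Cadenza and 117, 121, 118 and 125 TPM in *Rht-D1b* (log2 fold change 1.83, SE 0.06, adjusted p = 1.02e-14 from limma's test), with 105 ± 4.81 TPM (SD, n = 4) in water-treated *idd5*. TraesCSU02G134900, which its identifier places on no chromosome, was listed at 0 in the 4 Cadenza libraries and the 4 water-treated *idd5* libraries and had 3.79, 3.24, 4.52 and 4.84 TPM in *Rht-D1b*. Among the lower genes the 3 were TraesCS4A02G333500, TraesCS4A02G333400 and TraesCS4A02G333800, which lie close to each other in identifier order on chromosome 4A. TraesCS4A02G333800 had 15.45, 12.5, 12.8 and 15.6 TPM in Cadenza and 0, 0.04, 0 and 0 TPM in *Rht-D1b*.

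A presence or absence pattern was rare. With 2 TPM or more in each of the 4 libraries of one genotype and at most 0.1 TPM in all 4 of the other, 8 genes were found in Cadenza only and 4 in *Rht-D1b* only. All 12 thus passed the filter through 1 genotype alone and had to differ. The 8 comprised 4 neighbours on chromosome 4A, TraesCS4A02G333300, TraesCS4A02G333400, TraesCS4A02G333500 and TraesCS4A02G333800, and 1 gene each on chromosomes 4B (TraesCS4B02G368600), 5A (TraesCS5A02G419400), 5B (TraesCS5B02G010100) and 6D (TraesCS6D02G034900). The 4 found in *Rht-D1b* only were TraesCS3A02G273400, TraesCS4D02G114600, TraesCS5D02G111200 and TraesCSU02G134900. In the GA3 libraries the 2 genotypes did not overlap for 11 of the 12, which asks less than the limits above. The groups did not overlap for 15% of all genes tested in water, and this share was not computed for GA3. Of the 11, TraesCS4A02G333500 reached 0.17 TPM in GA3-treated *Rht-D1b*. TraesCS4B02G368600 had as little as 1.89 TPM in GA3-treated Cadenza and up to 0.34 TPM in *Rht-D1b*. TraesCS4D02G114600 had as little as 0.72 TPM in GA3-treated *Rht-D1b*. The exception was TraesCS3A02G273400, which ranged from 0 to 1.21 TPM in GA3-treated Cadenza and from 0 to 2.91 TPM in GA3-treated *Rht-D1b*. With the stricter limits of at least 5 TPM against 0 TPM, 1 gene remained in each direction, TraesCS4A02G333400 and TraesCS5D02G111200.

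The libraries treated with GA3 come from other seedlings of the same lines and their levels did not enter the water contrast, although the fit of all 24 libraries gave both contrasts a common estimate of the spread. Of the 2539 DEGs in water, 2522 (99.3%) had the same sign in the GA3 libraries and 17 the opposite sign, whereas 69.2% of the tested genes that were not DEGs in water had the same sign. DEGs of the same direction in both treatments numbered 2023 (79.7%), of which 944 were higher and 1079 lower, where 8.75% of all tested genes were DEGs between the GA3-treated genotypes (3.54% higher and 5.21% lower). In separate fits of the 8 water and the 8 GA3 libraries, added after the data had been seen, 1446 genes were DEGs in water, of which 1431 (98.96%) had the same sign in GA3 and 877 (60.7%) were DEGs of the same direction there, where 3.74% of all tested genes were called. In the common fit the median size, in the direction called in water, was 0.55 in water and 0.54 in the GA3 libraries. Of the 443 DEGs with at least a 2-fold difference, 439 kept their sign and 359 were again at least 2-fold apart in the same direction.

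The difference between the treatments was tested directly as the interaction of genotype and treatment. It was called for 0 of the 58542 genes (smallest adjusted p = 0.222 from limma's test), and 3526 genes (6.02%) had an unadjusted p under 0.05. With 4 libraries a group, the lack of calls does not show that the differences were equal. *RHT-D1* was among the genes under 0.05, with a log2 fold change of 0.67 in water and 0.31 (adjusted p = 0.00391) in the GA3 libraries. There it had 87.6 ± 5.28 TPM (SD, n = 4) in Cadenza against 109 ± 10.3 TPM (SD, n = 4) in *Rht-D1b*. By limma's test of the interaction its unadjusted p was 0.00211 and its adjusted p 0.564, so it was not called. Among the 12 genes with the largest differences in water, the log2 fold change in water and in GA3 was -6.66 and -6.58 for the largest decrease, TraesCS4A02G333500. For the largest increase, TraesCS2A02G416300, it was 4.86 and 4.09.

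**Figure D4:**
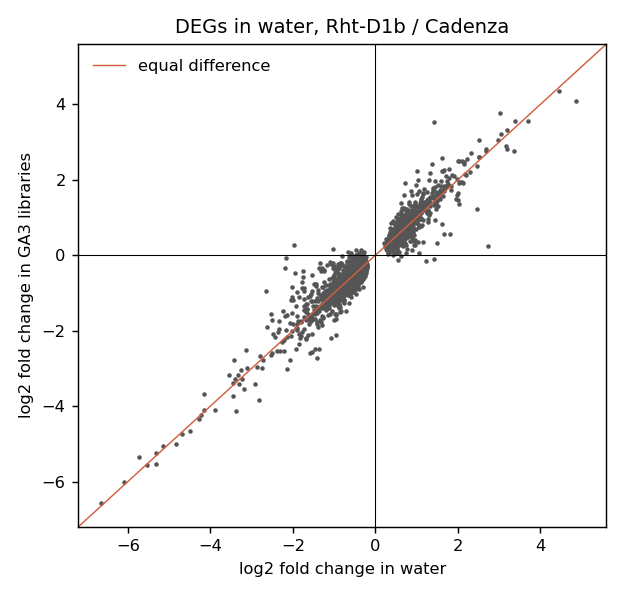
Log2 fold change between *Rht-D1b* and Cadenza in water (horizontal axis) and in the GA3 libraries (vertical axis) of the 2539 genes that were DEGs in water; each point is a gene, and the line marks an equal difference. In the GA3 libraries 2522 of the points keep their sign and 17 do not.

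By identifier, the DEGs were spread over all 21 chromosomes. The share of tested genes that were DEGs ran from 3.51% on chromosome 3B to 5.26% on chromosome 5D (168 of 3196 genes). By subgenome it was 4.12% for A, 4.04% for B and 4.73% for D, and by group of homoeologous chromosomes it was lowest for group 3 (3.62%) and highest for group 5 (4.98%). Chromosome 4D, which carries *RHT-D1*, had 5.25% (121 of 2303 genes). The models placed on no chromosome had the highest share, 7.33% (56 of 764 genes), and 22 of them differed at least 2-fold, 5 higher and 17 lower. Among the chromosomes, the share of genes with a 2-fold difference was highest on 5B, with 1.29% (14 higher and 26 lower), and lowest on 7A, with 0.388% (5 higher and 6 lower).

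The surroundings of *RHT-D1* were examined next. Of the 25 tested genes before and the 25 after it in identifier order, from TraesCS4D02G036100 to TraesCS4D02G045600, 6 were DEGs (12%, against 4.34% of all genes tested), 3 higher and 3 lower, and 1 differed at least 2-fold (0.757% of all genes tested). No window of 20 consecutive tested genes on chromosome 4D held more than 5 DEGs. A window with 5 ran from TraesCS4D02G038700 to TraesCS4D02G041200, around *RHT-D1*, which is itself 1 of the 5. The highest number in such a window was between 3 and 9 on the other chromosomes. The nearest DEG before it, TraesCS4D02G040300, had 3.53, 2.96, 3.80 and 3.74 TPM in Cadenza and 0.90, 1.81, 2.39 and 1.99 TPM in *Rht-D1b* (log2 fold change -0.86, SE 0.19, adjusted p = 0.00592 from limma's test). The nearest after it, TraesCS4D02G040800, had 26.7, 27.2, 27.9 and 25.2 TPM in Cadenza and 18.1, 19.9, 14.4 and 19.9 TPM in *Rht-D1b* (-0.56, SE 0.12, adjusted p = 0.00479). Neither call was firm. TraesCS4D02G040300 missed the threshold without Cadenza replicate 1, 3 or 4 or *Rht-D1b* replicate 1 or 2 (adjusted p from 0.0113 to 0.0258), and TraesCS4D02G040800 without Cadenza replicate 1, 2 or 3 or *Rht-D1b* replicate 1 or 3 (adjusted p from 0.0124 to 0.0249). With median-ratio scaling their adjusted p was 0.011 and 0.0182, in the fit of the 8 water libraries 0.0381 and 0.0104, and for TraesCS4D02G040800 in the fit of the 16 libraries without *idd5* 0.0116.

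Genes with large differences often lay next to each other. Of the 443 DEGs with at least a 2-fold difference, 110 (24.8%) had another one as the adjacent tested gene in identifier order. Of all genes tested, 0.757% were such DEGs. Of the 68 adjacent pairs 64 moved in the same direction, where 179 of the 443 genes were higher and 264 lower. Adjacency was counted and not tested. No run of 20 consecutive tested genes held 10 or more DEGs. With a looser rule that was chosen after the values were seen, windows of 20 tested genes with at least 5 DEGs of at least 2-fold, 9 runs on chromosomes 2A, 2B, 2D, 4A, 5A, 5B and 6A were found. They held 58 of the 443 genes (13.1%) in 102 tested genes (0.174% of those tested), 32 higher and 26 lower. All 58 were DEGs of the same direction in the GA3 libraries, where 371 of the 443 (83.7%) and 8.62% of all genes tested were. Some of the 58 passed the filter through 1 genotype alone and had to differ in water. The runs were picked for these differences, so their values are a description.

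**Figure D5:**
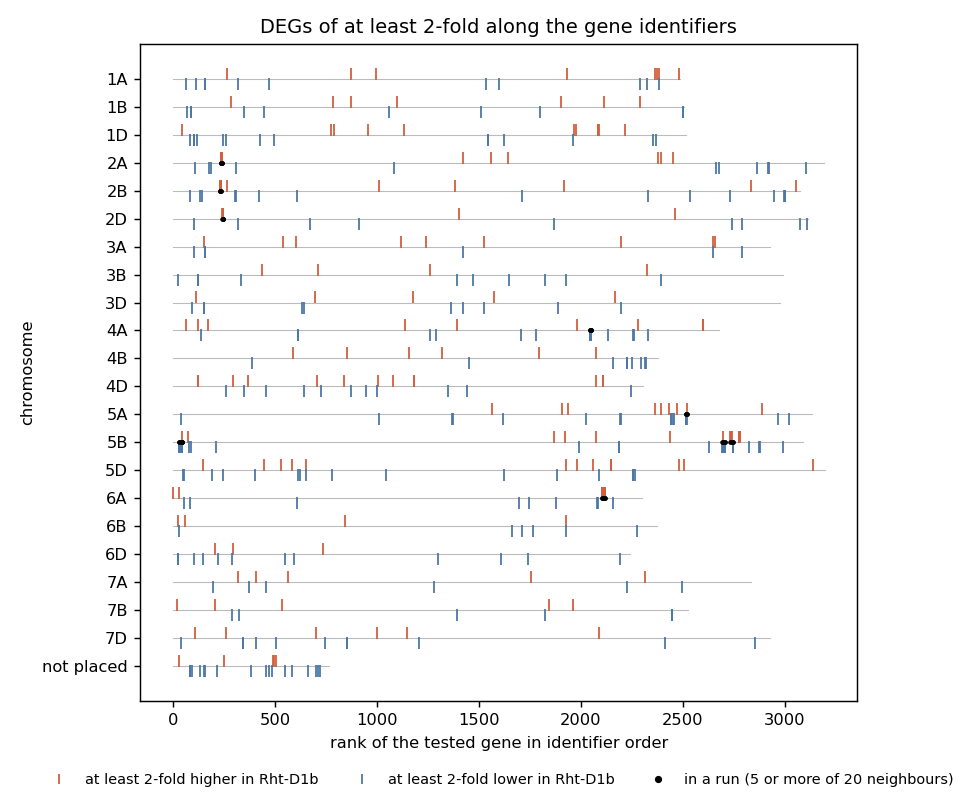
Position in identifier order (horizontal axis, rank among the tested genes of a chromosome) of the 443 DEGs with at least a 2-fold difference on each chromosome (vertical axis); red marks above a line are higher and blue marks below it lower in *Rht-D1b*, and black dots are the genes of the 9 runs. The runs on chromosomes 2A, 2B and 2D lie at similar ranks, and 3 of the 9 are on 5B.

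The group 2 chromosomes had 3 runs at like places, in which every tested gene was higher in *Rht-D1b*. The run on 2A, from TraesCS2A02G066700 to TraesCS2A02G067300, held 7 genes, whose summed TPM was 740, 716, 704 and 843 in Cadenza and 2148, 1967, 2517 and 2119 in *Rht-D1b*. The run on 2B, from TraesCS2B02G078900 to TraesCS2B02G079500, held 6 genes, with sums of 1030, 980, 960 and 1150 TPM in Cadenza and 2277, 2200, 2790 and 2468 TPM in *Rht-D1b*. The run on 2D, from TraesCS2D02G065100 to TraesCS2D02G065600, also held 6 genes, with sums of 511, 478, 500.0 and 570 TPM in Cadenza and 1356, 1296, 1648 and 1449 TPM in *Rht-D1b*. In each run the lowest *Rht-D1b* library was well above the highest Cadenza library, and the 19 genes had log2 fold changes from 1.09 to 3.19. In the GA3 libraries the sums were 836 ± 191 and 2542 ± 527 TPM (SD, n = 4) on 2A, 1104 ± 215 and 2729 ± 428 TPM on 2B and 535 ± 118 and 1629 ± 328 TPM on 2D for Cadenza and *Rht-D1b*. Water-treated *idd5* had sums of 2451 ± 507 TPM (SD, n = 4) on 2A, 2775 ± 475 TPM on 2B and 1666 ± 314 TPM on 2D. Which of the genes of these runs are homoeologues of each other was not looked up, and reads that such copies have in common could be split between them.

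The run on chromosome 4A, from TraesCS4A02G332600 to TraesCS4A02G333800, went the other way. It held 8 tested genes, of which 7 were at least 2-fold lower in *Rht-D1b*. Each of the 7 was under 0.5 TPM in every water library of *Rht-D1b*. They passed the filter only through Cadenza, so they had to differ in this direction. Their summed TPM was 91.0, 99.5, 98.1 and 111 in Cadenza and 0.05, 0.04, 0.12 and 0.35 in *Rht-D1b*. In the GA3 libraries the sum was 96.9 ± 8.01 TPM (SD, n = 4) in Cadenza against 0.105 ± 0.095 TPM (SD, n = 4) in *Rht-D1b*. In water-treated *idd5* it was 106 ± 2.0 TPM (SD, n = 4), in the range of Cadenza.

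Chromosome 5B held 3 runs. The first, from TraesCS5B02G007100 to TraesCS5B02G010600, had 8 lower genes and 1 higher gene among 20, and the sum of the 8 was 414, 425, 416 and 437 TPM in Cadenza and 140, 145, 160 and 134 TPM in *Rht-D1b*. TraesCS5B02G007100 was the most abundant of them, with 207 ± 3.42 TPM (SD, n = 4) in Cadenza against 88.0 ± 6.91 TPM (SD, n = 4) in *Rht-D1b*, and the higher gene, TraesCS5B02G010500, went from 1.01 ± 0.48 TPM (SD, n = 4) to 4.11 ± 1.23 TPM (SD, n = 4). Of the 8, TraesCS5B02G009000, TraesCS5B02G010100, TraesCS5B02G010400 and TraesCS5B02G010600 had under 0.5 TPM in each water library of *Rht-D1b*. They passed the filter only through Cadenza, so they had to differ in this direction. In water-treated *idd5* the sum of the 8 was 177 ± 37.5 TPM (SD, n = 4). The run from TraesCS5B02G482400 to TraesCS5B02G486300 had 5 lower genes, with a sum of 86.5 ± 5.29 TPM (SD, n = 4) in Cadenza, 35.4 ± 7.15 TPM (SD, n = 4) in *Rht-D1b* and 43.4 ± 6.69 TPM (SD, n = 4) in *idd5*, and 1 higher gene. The run from TraesCS5B02G492700 to TraesCS5B02G495400 mixed directions. Its 3 higher genes summed to 7.31 ± 0.62 TPM (SD, n = 4) in Cadenza against 17.8 ± 1.40 TPM (SD, n = 4) in *Rht-D1b*. Its 2 lower genes summed to 7.55 ± 1.88 TPM (SD, n = 4) in Cadenza and to 0, 1.96, 0 and 0 TPM in *Rht-D1b*. In these 2 runs, the higher genes TraesCS5B02G484000 and TraesCS5B02G493000 had under 0.5 TPM in each Cadenza water library. The lower gene TraesCS5B02G495300 was listed at 0 in the *Rht-D1b* water libraries. Each of them passed the filter only through the other genotype and had to differ.

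On chromosome 5A, the run from TraesCS5A02G432700 to TraesCS5A02G433800 had 1 higher gene, TraesCS5A02G433500, listed at 0 in the 4 Cadenza libraries and at 1.68 ± 1.002 TPM (SD, n = 4) in *Rht-D1b*, and 4 lower genes, which summed to 29.8, 35.6, 35.6 and 33.7 TPM in Cadenza and 2.92, 2.25, 3.06 and 1.47 TPM in *Rht-D1b*. Water-treated *idd5*, with 16.6 ± 3.18 TPM (SD, n = 4), lay between Cadenza and *Rht-D1b*. TraesCS5A02G433500 passed the filter only through *Rht-D1b*, so it had to differ. On chromosome 6A, the run from TraesCS6A02G379300 to TraesCS6A02G382600 had 7 genes of at least 2-fold difference among 17, all higher in *Rht-D1b*. They summed to 35.4, 38.1, 43.0 and 39.8 TPM in Cadenza and 117, 144, 135 and 137 TPM in *Rht-D1b*, and to 104 ± 15.3 TPM (SD, n = 4) in water-treated *idd5*. The largest increase in that run was that of TraesCS6A02G379300, from 2.555 ± 0.49 TPM (SD, n = 4) to 24.7 ± 1.75 TPM (SD, n = 4). TraesCS6A02G379700, at 0.17 ± 0.11 TPM (SD, n = 4) in Cadenza, passed the filter only through *Rht-D1b* and had to differ.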

How the data were processed

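Leaf sheath RNA was sequenced as paired-end Illumina libraries. After trimming with Trimmomatic (version 0.39) and quantification with Kallisto, the authors deposited a table of TPM for 24 libraries. The methods name RefSeq v1.2 gene models and the series text the v2.1 assembly, so identifiers are printed as deposited. TPM has no depth, and precision rests on 4 biological replicates a group.

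The 58542 genes were analysed as log2(TPM + 0.5). All 24 libraries were fitted in limma (version 3.58.1, R version 4.3.3), without a block, with a mean per genotype and treatment, a mean-variance trend in the empirical Bayes step and p-values adjusted after Benjamini-Hochberg. Single genes were also given exact two-sided permutation tests on TPM. Python (version 3.11.15) was used for tables. The fit was first tested on simulated data. Of the genes, 1650 had 0.5 TPM in exactly 4 libraries (median of the mean TPM 0.539) and 1673, left out, in exactly 3 (0.451). Genes that passed through the libraries of 1 genotype alone had to differ: 121 through Cadenza (65 DEGs) and 75 through *Rht-D1b* (33 DEGs).

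Named genes were the RHT1 and *IDD5* homoeologues, the 6 largest differences each way among DEGs with at least 5 TPM and non-overlapping groups, the 3 most abundant and the 3 of smallest adjusted p each way, and the DEGs nearest *RHT-D1*. Members and lists were chosen with earlier results of these data known. Alternatives were other pseudocounts, filters, scaling, sets of libraries, thresholds, a replicate block and each library left out. In water, replicate numbers did not pair the libraries of the 2 genotypes. For the GA3 libraries pairing was not tested. There the higher DEGs took up 8.29, 7.58, 7.43 and 9.06% of TPM in Cadenza replicates 1 to 4. In *Rht-D1b* replicates 1 to 4 they took up 13.19, 12.07, 12.06 and 13.64%. No sequence was printed, because none could be matched to the identifiers.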

Additional observations from a re-analysis of the deposited data

Results flagged for a closer look

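Within groups of 4 libraries, 1 library lay far from the others by Dixon's test of the gap to the nearest library over the range for 4 of the 66 groups examined among the named genes, sums and shares described. The sums of the runs of neighbouring genes were not among the groups examined. The test's threshold is set so that chance flags about 1 in 20 groups. *IDD5-A1* had 7.35 TPM in 1 *Rht-D1b* library in water and 8.75 to 8.90 TPM in the others. TraesCS4D02G059800 had 9.40 TPM in 1 *Rht-D1b* library and 6.87 to 6.93 TPM in the others. TraesCS2A02G067100 had 8.69 TPM in 1 Cadenza library and 4.86 to 5.01 TPM in the others, all below the *Rht-D1b* libraries. TraesCS4A02G333800 had 0.04 TPM in 1 *Rht-D1b* library and was listed at 0 in the others. With the others at 0 any value above 0 is flagged, so the stated rate does not hold there and the flag carries no information.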

How the results depend on the processing

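The counts of DEGs were 2506 and 2547 with pseudocounts of 0.1 and 1, 2329 without a filter, 2597 with a filter at 2 TPM, 1981 without the mean-variance trend, 2064 without the *idd5* libraries and 2478 with the filter over all 24 libraries (chosen after seeing the data). A fit of the 8 water libraries alone called 1446, of which 698 were lower. At an adjusted p of 0.05, 5607 were called, 2107 higher and 3500 lower, and 4080 recurred in the GA3 libraries. Median-ratio scaling called 821 lower DEGs and moved *RHT-B1* from -0.07 to 0.000301 (adjusted p = 0.999); the cause was not tested. Leaving out 1 library gave 1630 to 2276 DEGs, 736 to 980 higher, 833 to 1296 lower, 395 to 435 of at least 2-fold and 1406 to 1812 that recurred with GA3. In separate fits of the water and the GA3 libraries (chosen after seeing the data), 877 recurred. The number of genes found in 1 genotype only went from 12 to 2 with stricter limits. Runs of neighbouring genes numbered 0 under both rules on DEGs and 9 under the rule chosen after seeing the data. With the replicate number as a block, 2671 DEGs were called, 1213 higher and 1458 lower. In the water libraries, deviations from the group mean were correlated between same-numbered libraries of the 2 genotypes. These correlations lay between -0.0579 and 0.0395, and no library correlated best with its own number. For the named genes, 492 of 522 alternative values kept direction and call, 29 missed the threshold and 1 changed sign. High-confidence models alone were not run, since 0 identifiers carried the low-confidence ending. The depth of the libraries is unknown, so no limit for values of 0 was derived.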

Other observations

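On chromosome 5D, TraesCS5D02G119700 and TraesCS5D02G119400, a pair with 1 tested gene between them that was chosen after the values were seen, moved in opposite directions. TraesCS5D02G119400 had 20.8, 21.4, 25.2 and 21.3 TPM in Cadenza and 1.03, 0.78, 0.41 and 0.67 TPM in *Rht-D1b* in water, and TraesCS5D02G119700 had 1.17, 1.79, 2.84 and 0.98 TPM and 30.5, 23.9, 27.2 and 24.6 TPM. Their sum was 23.9 ± 2.83 TPM (SD, n = 4) in Cadenza against 27.3 ± 3.11 TPM (SD, n = 4) in *Rht-D1b*, and it was 22.65 ± 2.07 and 24.96 ± 1.46 TPM (SD, n = 4) in the GA3 libraries of these genotypes. Water-treated *idd5* had 19.35 ± 2.1 TPM (SD, n = 4) of TraesCS5D02G119400 and 2.215 ± 0.86 TPM (SD, n = 4) of TraesCS5D02G119700.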
